A study of Homo sapiens with 9 samples.

Results

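The epidermal lineage transcription factors considered here are TP63, SOX15, SOX9, TFAP2A, TFAP2C, GATA3 and KLF5, 7 genes chosen by name as regulators of surface epithelia. Of these, 6 had a probe set with a listed gene symbol, 14 probe sets in all among the 54613 tested, and stood among 19775 genes. TP63 was not analysed here. Expression was measured on whole-genome arrays in HaCaT cells, a spontaneously immortalised human keratinocyte line, in 3 lines with 3 arrays each. The parental line carried no construct. WT-actin cells stably expressed β-actin fused to GFP, and NLS-actin cells stably expressed the same fusion with a nuclear localization sequence that takes it into the nucleus. Both constructs were selected with G418 as a GFP-positive population, so that each condition is 1 selected line, and no line expressing GFP alone was on the arrays. All cells came from the same parental line. Each line's 3 arrays are described as experimental replicates, without a statement that their cultures were separate, so that the p values measure the spread between these arrays, which may be technical.

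The transcription factors of this set share the surface epithelia as their field of action. TP63 encodes p63, the regulator that establishes and maintains stratified epithelium. The AP-2 proteins encoded by TFAP2A and TFAP2C act early in the surface ectoderm and open keratinocyte enhancers together with p63. GATA3 is a zinc finger factor needed for the hair follicle inner root sheath and the epidermal barrier, KLF5 is a zinc finger factor of proliferating basal epithelial cells, SOX9 marks and maintains hair follicle stem cells, and SOX15 is an HMG-box factor found in keratinocytes. The lines are compared because actin in the nucleus takes part in transcription and holds back cofactors of the serum response factor, which binds the CArG box. In whole-culture RNA, fewer cells that express a gene cannot be told apart from less RNA per cell.

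Promoter sequence was at hand for 3 of the factors, TFAP2A, GATA3 and KLF5, in 10 windows of 300 bases, from 250 bases before to 50 after an annotated start (RefSeq, GRCh38.p14). A window of each of these 3 factors is shown because AP-2 proteins and KLF5 bind GC-rich DNA. The windows shown were picked because they differ in it, so that they do not stand for all windows of a gene. Capitals mark the GC box, GGGCGG on either strand.
GATA3, chr10:8053391-8053690, plus strand: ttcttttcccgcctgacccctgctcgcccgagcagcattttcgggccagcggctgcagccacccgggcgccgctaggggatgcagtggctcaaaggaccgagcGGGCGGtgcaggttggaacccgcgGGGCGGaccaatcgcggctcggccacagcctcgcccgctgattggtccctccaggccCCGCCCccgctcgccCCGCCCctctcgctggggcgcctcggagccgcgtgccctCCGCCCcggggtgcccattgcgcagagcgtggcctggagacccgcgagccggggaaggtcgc
KLF5, chr13:73058755-73059054, plus strand: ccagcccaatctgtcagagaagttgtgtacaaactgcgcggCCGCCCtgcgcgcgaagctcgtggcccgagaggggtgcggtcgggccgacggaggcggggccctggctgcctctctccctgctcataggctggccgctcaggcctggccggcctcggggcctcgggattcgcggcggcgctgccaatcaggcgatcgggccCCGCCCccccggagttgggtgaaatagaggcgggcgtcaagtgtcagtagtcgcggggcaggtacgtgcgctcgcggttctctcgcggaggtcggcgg
TFAP2A, chr6:10419610-10419909, minus strand: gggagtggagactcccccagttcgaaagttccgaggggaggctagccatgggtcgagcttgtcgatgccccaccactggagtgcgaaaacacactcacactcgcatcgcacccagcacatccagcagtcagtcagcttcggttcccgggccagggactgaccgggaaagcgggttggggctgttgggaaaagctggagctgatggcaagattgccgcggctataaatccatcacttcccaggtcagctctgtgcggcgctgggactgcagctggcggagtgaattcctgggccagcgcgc
The GATA3 window shown held 5 GC boxes, the KLF5 window 2 and the TFAP2A window 0, while 45 percent of the 35116 windows of all genes held at least 1. By position, the 6 GATA3 windows held 0, 2, 1, 5, 5 and 0 GC boxes. The 2 KLF5 windows held 0 and 2, and both TFAP2A windows held 0. The AP-2 motif GCCNNNGGC, which reads the same on both strands, was found in 3 of the 6 GATA3 windows, in 0 of the 2 TFAP2A windows and in 0 of the 2 KLF5 windows, against 23.2 percent of all windows. For the CACCC box, CCACCC on either strand, the GATA3 windows held 1, 0, 2, 1, 1 and 1 by position. The TFAP2A windows held 1 and 0 and both KLF5 windows held 0, while 34.3 percent of all windows held at least 1. The GATA site AGATAA and the CArG box were found in none of the 10 windows, against 10.3 and 1.29 percent of all windows. These matches describe letters in short windows, and binding was not measured.

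The signals are MAS5 values, linear array intensities that the authors had scaled to a common trimmed mean. Their median over an array ran from 29.67 to 43.26, and values under 10 made up 25.14 to 31.14 percent. Ranked by mean signal, the basal keratinocyte keratins KRT5 and KRT14 stood at percentiles 99.4 and 99.6, whereas the median signals over the 9 arrays ran from 8.55 (LUM) to 508 (COL1A1) for the 6 fibroblast markers measured, from 0.763 (CD3E) to 76.2 (CD14) for 4 leukocyte markers, from 10.9 (KDR) to 42.7 (VWF) for 4 endothelial markers and from 1.84 (TYRP1) to 2307 (MITF) for 5 melanocyte markers. KRT1, a keratin of differentiated keratinocytes, averaged 125 in parental, 82.7 in WT-actin and 1313.5 in NLS-actin cells. Its log2 fold changes were 3.17 and 3.82 in NLS-actin against parental and WT-actin cells (limma adjusted p = 0.551 and 0.198). Its highest signal, 3305, was on an NLS-actin array, and the NLS-actin arrays overlapped the parental but not the WT-actin ones. Of the other differentiation markers measured, FLG was also higher in these comparisons (0.87 and 0.51). KRT10 (-0.22 and -0.49) and IVL (-0.35 and -0.04) were lower, and none of these passed the test. CD14 averaged 77.0 in parental, 18.6 in WT-actin and 106 in NLS-actin cells. It was higher in NLS-actin than in WT-actin cells by 2.53 on the log2 scale (limma adjusted p = 0.0437). Against parental cells its log2 fold change was -1.93 in WT-actin and 0.60 in NLS-actin cells (limma adjusted p = 0.296 and 0.877). Of the other leukocyte markers, CD3E (0.81) was higher and PTPRC (-1.56) and LYZ (-0.73) were lower in NLS-actin than in WT-actin cells. The part of KRT1 and CD14 in the results below was not tested. The signal ratio of the 3′ to the 5′ control probe sets of ACTB, which rises when RNA is degraded or copied incompletely, ran from 3.82 to 14.9. Replicate 2 of the parental line (7.96), replicate 1 of WT-actin (14.9) and replicate 2 of NLS-actin cells (12.8) had the highest ratio of their line, although NLS-actin replicate 3 (7.98) lay as high as the first of these. The transfected actin is of the same gene, and the part of its RNA in this ratio was not tested. The brightest probe set of ACTB itself, the gene of the transfected actin, averaged 12364 in parental, 17384 in WT-actin and 14611 in NLS-actin cells, and neither difference from the parental line passed the test (limma adjusted p = 0.676 and 0.859). It does not check the labels by itself, since it reads the native gene as well.

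At an adjusted p under 0.05 (limma over all 9 arrays, Benjamini and Hochberg over all genes), 0 of the 6 factors passed in NLS-actin against parental cells, where 0.131 percent of all genes passed. The same count was 0 of 6 in WT-actin against parental cells, beside 0.167 percent of all genes, and 0 of 6 in NLS-actin against WT-actin cells, beside 0.728 percent. At an unadjusted p under 0.05, 4 of the 6 factors were past the threshold in NLS-actin against parental cells, SOX15, TFAP2C and KLF5 higher and SOX9 lower, beside 6.44 percent of all genes. In WT-actin against parental cells TFAP2C alone was, beside 6.69 percent, and in NLS-actin against WT-actin cells SOX15 and SOX9 were, beside 9.47 percent. The probe sets that stand for the 6 factors are bright, between the 90.8 and 98.5 percentiles of mean signal, and the other 8 lay between 45.4 and 84.1. Among the 3430 genes at least as bright as the dimmest factor, 5.36, 7.78 and 6.76 percent had an unadjusted p under 0.05 in these 3 comparisons. The 3 arrays of NLS-actin cells did not overlap the 3 parental arrays for 4 of the 6 factors, beside 13.9 percent of all genes and 16.5 percent of the bright ones. That count was 0 of 6 for WT-actin against parental arrays, beside 12.3 percent of all genes, and 2 of 6 for NLS-actin against WT-actin arrays, beside 13.9 percent. The thresholds of the study, an unadjusted p under 0.05 with more than a 2-fold difference, were met by none of the factors' 14 probe sets in any comparison, beside 3.6 percent of all probe sets in NLS-actin against parental cells, 3.2 percent in WT-actin against parental cells and 4.67 percent in NLS-actin against WT-actin cells.

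**Figure D1:**
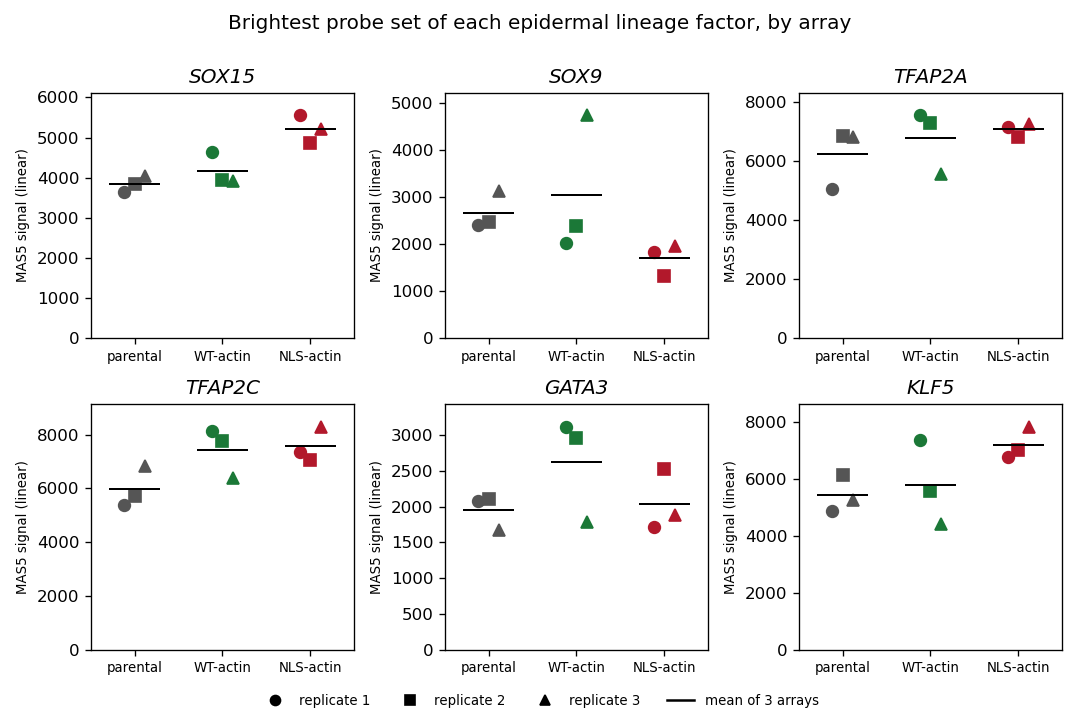
MAS5 signal on a linear axis from 0 for the brightest probe set of each factor, with 1 point per array, a marker shape per replicate number and a bar at the line mean. For SOX15, TFAP2C and KLF5 the points of NLS-actin cells lie above every parental point, and for SOX9 below, and the WT-actin arrays of SOX9 spread from 2019.6 to 4744.

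Of the SOX factors, SOX15 (chr17:7588178-7590094 in GRCh38.p14) had parental signals of 3631, 3846 and 4036, WT-actin signals of 4632, 3937 and 3905, and NLS-actin signals of 5560.4, 4864 and 5225 in replicates 1 to 3. The 3 NLS-actin arrays lay above all arrays of the other lines, and the WT-actin arrays overlapped the parental ones. The mean was 5216 ± 348 (SD, n = 3) in NLS-actin, 3838 ± 202 in parental and 4158 ± 411 in WT-actin cells. SOX15 was thus 1.36-fold higher in NLS-actin than in parental cells, with a log2 fold change of 0.44 (SE 0.13, 95 percent interval 0.16 to 0.72), which did not pass the test (limma, unadjusted p = 0.00462, adjusted p = 0.366). Against WT-actin cells the log2 fold change was 0.33 (interval 0.05 to 0.61, limma adjusted p = 0.406), and between WT-actin and parental cells it was 0.11 (adjusted p = 0.902), and 0.03 without WT-actin replicate 1. The exact permutation test of 3 arrays against 3 gave its smallest possible p, 0.1, in both comparisons of NLS-actin cells. With the arrays paired by replicate number in a limma fit of the parental and NLS-actin arrays alone, the adjusted p of SOX15 was 0.0746, where 378 genes passed. The same fit without the intensity trend in the variance gave SOX15 an adjusted p of 0.577. Both fits were chosen after the data were seen. Its dimmer probe set, with signals of 119 to 253, gave a log2 fold change of 0.44 as well (adjusted p = 0.860 over all probe sets), but its NLS-actin arrays (195, 128 and 253) overlapped the parental ones (154, 138 and 119).

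SOX9 (chr17:72121020-72126416), the hair follicle stem cell factor, had parental signals of 2402, 2468 and 3134.5, WT-actin signals of 2019.6, 2387 and 4744, and NLS-actin signals of 1829, 1319 and 1969.7. The 3 NLS-actin arrays lay below the other 6, by a narrow gap to WT-actin replicate 1, and WT-actin replicate 3 lay far above the other arrays of its line. The log2 fold change was -0.66 in NLS-actin against parental cells (SE 0.28, 95 percent interval -1.26 to -0.05, limma adjusted p = 0.714) and -0.76 against WT-actin cells (interval -1.36 to -0.15, adjusted p = 0.369). Both are the largest differences among the 6 factors in their comparison, and neither passed the test. Between WT-actin and parental cells it was 0.10 (adjusted p = 0.969), and without WT-actin replicate 3 it was -0.27. Without that array the log2 fold change against WT-actin cells was -0.39. SOX9 was the single factor whose call changed with a fit: with the arrays paired by replicate number in a fit of the parental and NLS-actin arrays alone its adjusted p was 0.0194, where 378 genes passed, while the same fit without the intensity trend in the variance passed 0 genes and gave SOX9 an adjusted p of 0.519. With the number as a block in the fit of all 3 lines the adjusted p was 0.594 where the block joined the parental and NLS-actin arrays and 0.493 where it joined all 9. With the ACTB ratio in the fit the log2 fold change of SOX9 against parental cells was -0.38, and without the array of highest ratio in each line it was -0.53. The second probe set of SOX9, with signals of 448 to 2544, gave -0.63 against parental cells (limma adjusted p = 0.879 over all probe sets), with NLS-actin arrays (968, 495 and 784) that overlapped the parental ones (909, 911 and 1665).

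**Figure D2:**
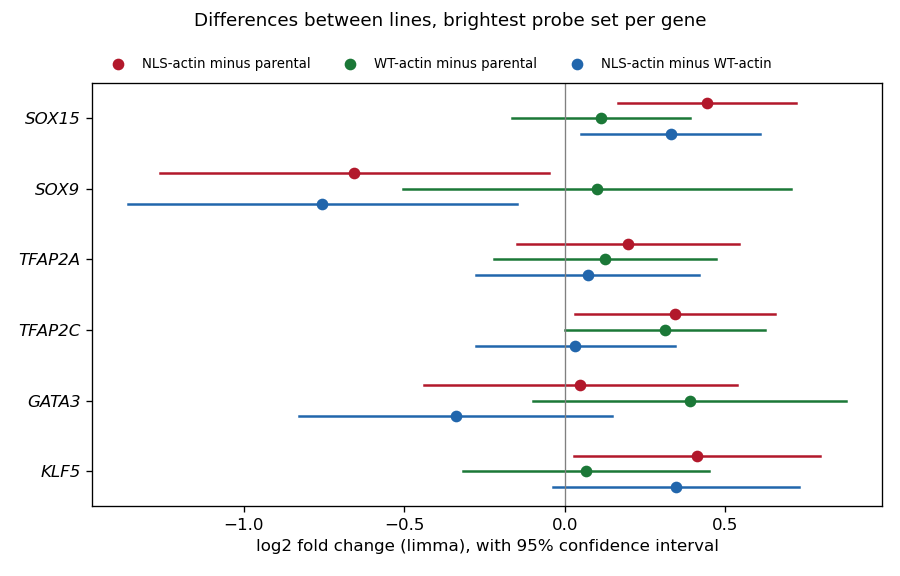
Log2 fold changes (x axis) of the brightest probe set of each factor (y axis) in the 3 comparisons, as points with 95 percent confidence intervals from limma. The intervals of SOX15 and SOX9 lie on one side of 0 in both comparisons of NLS-actin cells, and that of TFAP2C in both comparisons with the parental line, before adjustment over all genes.

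Of the AP-2 factors, TFAP2C (chr20:56629306-56639283) had parental signals of 5382, 5707 and 6845, WT-actin signals of 8127, 7765 and 6367, and NLS-actin signals of 7338.5, 7061 and 8298. The NLS-actin arrays lay above all parental arrays, whereas WT-actin replicate 3 fell among the parental ones. The log2 fold change against parental cells was 0.34 in NLS-actin cells (SE 0.14, interval 0.03 to 0.66, limma adjusted p = 0.705) and 0.31 in WT-actin cells (interval 0.00063 to 0.62, adjusted p = 0.746). Between NLS-actin and WT-actin cells it was 0.03 (interval -0.28 to 0.34), an interval that holds differences nearly as large as either. TFAP2A (chr6:10396677-10419659), its close relative, had parental signals of 5036, 6843.5 and 6817, WT-actin signals of 7549.8, 7279 and 5542, and NLS-actin signals of 7146, 6808 and 7256. The lines overlapped in all comparisons, and the means of 6232 ± 1036, 6790.5 ± 1089 and 7070 ± 234 (SD, n = 3 each) differed by less than the spread between arrays of the parental and WT-actin lines. Its log2 fold changes were 0.20, 0.12 and 0.07 in NLS-actin against parental, WT-actin against parental and NLS-actin against WT-actin cells (limma adjusted p of 0.874 and 0.915 against the parental line), and the first was 0.05 without parental replicate 1, its lowest array. A dimmer TFAP2A probe set ran the other way. Its parental signals were 289, 351.1 and 355.5, its WT-actin signals 189, 176 and 298, and its NLS-actin signals 196, 287 and 253, with log2 fold changes against parental cells of -0.45 in NLS-actin cells (limma adjusted p = 0.844 over all probe sets) and -0.62 in WT-actin cells (adjusted p = 0.810). Its NLS-actin arrays lay below all parental arrays, by 289 against 287 at the nearest.

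Of the zinc finger factors, KLF5 (chr13:73054976-73077538) had parental signals of 4869, 6122 and 5256, WT-actin signals of 7339.6, 5551 and 4416, and NLS-actin signals of 6749.6, 6990.3 and 7829. The NLS-actin arrays lay above all parental arrays, and WT-actin replicate 1 lay among the NLS-actin arrays. KLF5 was 1.33-fold higher in NLS-actin than in parental cells, with a log2 fold change of 0.41 (SE 0.18, interval 0.03 to 0.80, limma adjusted p = 0.719). Against WT-actin cells it was 0.35 (adjusted p = 0.593), with 0.54 without WT-actin replicate 1 and 0.17 without WT-actin replicate 3, and between WT-actin and parental cells 0.07, which turned to -0.11 after quantile normalization. With the ACTB ratio in the fit, the NLS-actin difference from parental cells was 0.25. The second KLF5 probe set had signals of 580, 1160 and 613 in parental, 506, 553 and 493 in WT-actin and 671, 1363 and 607 in NLS-actin cells. There the WT-actin arrays lay below all other arrays, and replicate 2 was the highest array of the other lines. Its log2 fold changes were -0.53 in WT-actin against parental cells and 0.67 in NLS-actin against WT-actin cells (limma adjusted p = 0.845 and 0.643 over all probe sets, exact permutation p = 0.1 for both).

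GATA3 (chr10:8045333-8075198), with a promoter window shown above, had parental signals of 2078, 2112 and 1675, WT-actin signals of 3119.5, 2960 and 1786, and NLS-actin signals of 1711, 2525 and 1882. All 3 lines overlapped. The log2 fold change was 0.05 in NLS-actin against parental cells (interval -0.44 to 0.54), 0.39 in WT-actin against parental cells (limma adjusted p = 0.783), while it was -0.34 in NLS-actin against WT-actin cells (adjusted p = 0.729). The first of these turned to -0.15 with the ACTB ratio in the fit. The other two were 0.24 and -0.19 without WT-actin replicate 1, 0.64 and -0.60 without WT-actin replicate 3, and the last was -0.22 without NLS-actin replicate 1. Its 2 other probe sets were also lower in NLS-actin than in WT-actin cells, by log2 fold changes of -0.35 and -0.48. The latter, with signals of 1483, 1136 and 1092.5 in WT-actin and 759, 1002 and 889.8 in NLS-actin cells, did not overlap between these lines (limma unadjusted p = 0.0256, adjusted p = 0.537 over all probe sets).

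**Figure D3:**
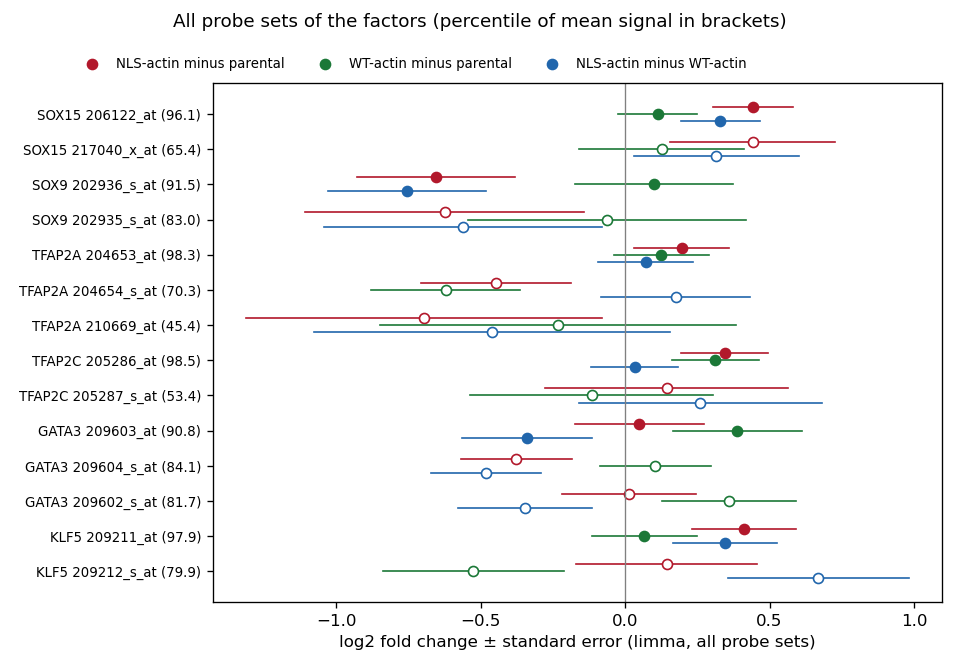
Log2 fold change ± standard error (x axis) of all 14 probe sets of the factors in the 3 comparisons, with filled points for the brightest probe set of a gene and open points for the others. The probe sets of SOX15 and SOX9 lie on the same side of 0 in both comparisons of NLS-actin cells, whereas those of TFAP2A lie on both sides in the comparisons with parental cells.

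Over the 6 factors the median log2 fold change in NLS-actin against parental cells was 0.27, with 5 above 0, beside -0.005 over all genes and 0.085 over the 3430 bright genes. In WT-actin against parental cells the median was 0.12, with 6 above 0, beside -0.06 over all genes and 0.102 over the bright ones. In NLS-actin against WT-actin cells it was 0.05, with 4 above 0, beside 0.033 and -0.032. After quantile normalization the medians of the factors in these comparisons were 0.14, 0.08 and 0.10, with 5, 4 and 4 of the 6 above 0, and those of the bright genes were 0, -0.001 and -0.004. The comparisons share their arrays pairwise, so that their values are not independent. The order of the lines by mean signal was NLS-actin, WT-actin and parental for SOX15, TFAP2A, TFAP2C and KLF5, WT-actin, parental and NLS-actin for SOX9, and WT-actin, NLS-actin and parental for GATA3. In these orders no neighbouring lines differed at an adjusted p under 0.05, and only the NLS-actin arrays of SOX15 and SOX9 lay clear of the neighbouring line.

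The factors also varied between the arrays of a line. SOX9 and GATA3 did so in opposite directions on each of the 9 arrays. In WT-actin cells, the deviation of SOX9 from the line mean was -0.49, -0.25 and 0.74 on the log2 scale in replicates 1 to 3, and that of GATA3 was 0.29, 0.22 and -0.51. In NLS-actin cells these were 0.12, -0.35 and 0.23 for SOX9 and -0.23, 0.33 and -0.10 for GATA3, and in parental cells -0.14, -0.10 and 0.24 for SOX9 and 0.10, 0.12 and -0.22 for GATA3. Pearson's r of these deviations was -0.967 and Spearman's rho -0.917 over the 9 arrays, and r was -0.947 without WT-actin replicates 1 and 3, the arrays farthest from the median of SOX9. Of the 15 pairs of factors this was the lowest, with SOX9 and KLF5 next at -0.663, and TFAP2A and TFAP2C had the highest at 0.8. Both genes moved with the ACTB ratio, whose log2 value was also taken as a deviation from the line mean. The r was -0.831 for SOX9 and 0.807 for GATA3. This was not particular to the pair. KLF5 also rose with the ratio in parental and WT-actin cells. In WT-actin replicates 1 to 3 it deviated by 0.38, -0.02 and -0.35, at ratios of 14.9, 6.79 and 3.82. In NLS-actin cells KLF5 did not follow the ratio (-0.09, -0.04 and 0.13). The part of this ratio in the result was not tested. The points share the arrays and their scaling, and these coefficients describe the 9 arrays.

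**Figure D4:**
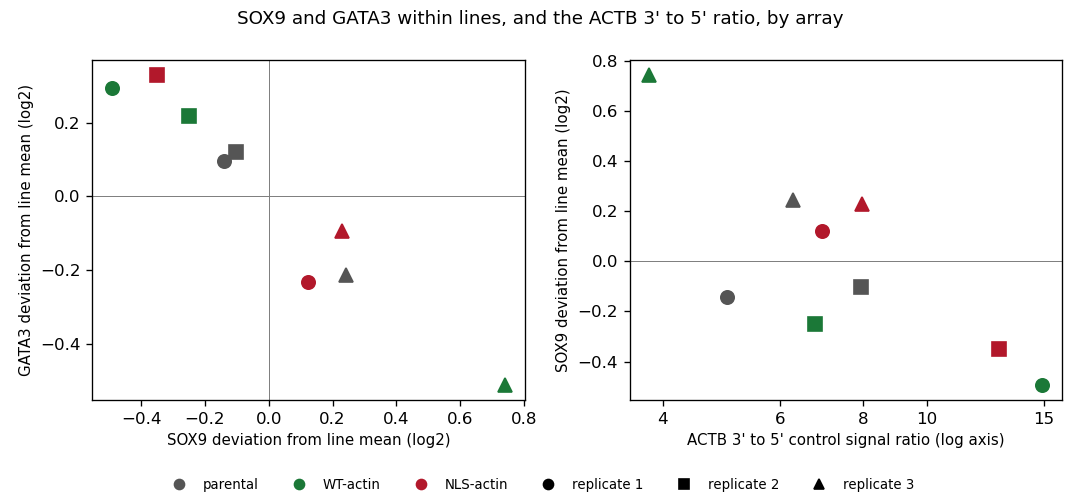
Left, the deviation of SOX9 (x axis) and GATA3 (y axis) from their line means in log2 units, 1 point per array. Right, the SOX9 deviation against the ACTB 3′ to 5′ signal ratio on a log axis, where the arrays of highest ratio, WT-actin replicate 1 and NLS-actin replicate 2, have SOX9 at -0.49 and -0.35.

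The genes whose log2 signal followed a factor most closely over the 9 arrays were sought among the 11979 genes above the median level of all probe sets. They were BOLA2, PTTG1IP and RHNO1 for SOX15 (r of 0.963, 0.952 and 0.945) and TRAF3IP3, PIP4K2A and SLC30A7 for SOX9 (0.99, 0.961 and 0.96). For TFAP2A they were RPL36, PDLIM1 and NPC2 (0.972, 0.938 and 0.936), and for TFAP2C they were HACD3, CDC42SE1 and LMAN1 (0.975, 0.972 and 0.969). For GATA3 they were ATP8B1, CDKN2B and UEVLD (0.977, 0.967 and 0.957), and for KLF5 they were FBLN1, PTPRS and SERPINB13 (0.948, 0.938 and 0.935). None of these genes is a factor of the set, and each was picked as one of the 3 highest coefficients of its factor.

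Target genes of p63 were listed as 36 names, of which 32 were measured. The list, which holds CDKN1A, was not split into genes that p63 activates and genes that it represses. At an adjusted p under 0.05, 0 of the 32 passed in each comparison. In NLS-actin against parental cells 3 of them had an unadjusted p under 0.05, all higher, beside the 6.44 percent of all genes, and the median was 0.15. These were TRIM29, a basal cell factor that binds p53, with a log2 fold change of 0.42 (limma adjusted p = 0.637), PERP, a desmosomal membrane protein, with 0.36 (adjusted p = 0.680), and KRT5, the basal keratin, with 0.44 (adjusted p = 0.753). KRT5 signals were 6373, 9727 and 8904 in parental, 12753, 8720.2 and 7942 in WT-actin and 10418, 11964 and 11070 in NLS-actin cells, so that the NLS-actin arrays lay above all parental arrays. In WT-actin against parental cells 2 were higher, PERP (0.37) and FRAS1 (0.54), and 1 was lower, the Notch ligand JAG2 (-0.73, limma adjusted p = 0.272), with a median of 0.125. In NLS-actin against WT-actin cells JAG2 (0.51) and the desmosomal cadherin DSG3 (0.65) were higher and FRAS1, a basement membrane protein, was lower (-0.56), with a median of 0.001. The 3 of 32 past an unadjusted p of 0.05 in each of these last comparisons stand beside 6.69 and 9.47 percent of all genes.

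Other transcription factors of the epidermis were listed as 39 names, of which 35 were measured, and 0 passed at an adjusted p under 0.05 in each comparison. In NLS-actin against parental cells the median was 0.125, and 2 had an unadjusted p under 0.05, beside 6.44 percent of all genes. DLX5, a distal-less homeobox factor, had signals of 23.1, 44.8 and 23.2 in parental, 50.2, 37.4 and 17.4 in WT-actin and 95.4, 221 and 61.3 in NLS-actin cells (log2 fold change 1.92, limma adjusted p = 0.413), and its 3 NLS-actin arrays lay above the other 6. TWIST1, a mesenchymal factor, differed from parental cells by 0.71 in NLS-actin and 0.95 in WT-actin cells on the log2 scale (limma adjusted p = 0.659 and 0.392). In WT-actin against parental cells the median was -0.123, with 2 higher and 4 lower at an unadjusted p under 0.05, beside 6.69 percent of all genes. In NLS-actin against WT-actin cells it was 0.209, with 5 higher and 1 lower, beside 9.47 percent. FOXE1, a forkhead factor of the hair follicle, had 896, 729 and 922 in parental, 342, 408 and 758 in WT-actin and 992, 1036 and 878 in NLS-actin cells, and its NLS-actin arrays lay above all WT-actin arrays (log2 fold change 1.03, limma adjusted p = 0.133).

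Paralogs in the p53, SOX, AP-2, GATA and KLF families were listed as 42 names, of which 41 were measured, with 0 past an adjusted p of 0.05 in each comparison. At an unadjusted p under 0.05 there were 1 higher and 2 lower in NLS-actin against parental cells (median 0.041), 0 and 3 in WT-actin against parental cells (median -0.08), and 2 and 2 in NLS-actin against WT-actin cells (median 0.061), beside 6.44, 6.69 and 9.47 percent of all genes. KLF13, a zinc finger relative of KLF5, had signals of 288, 596 and 274 in parental, 214, 102 and 220.4 in WT-actin and 537, 961 and 423 in NLS-actin cells. Its log2 fold change was 1.84 in NLS-actin against WT-actin cells (limma adjusted p = 0.0730), with no overlap between these lines, and replicate 2 was the highest array of the parental and NLS-actin lines. GATA2, a relative of GATA3, was lower in WT-actin than in parental cells, with means of 545 ± 40.4 and 906 ± 164 (SD, n = 3 each, log2 fold change -0.72, limma adjusted p = 0.312), and no overlap. Cofactors and regulators of the factors were listed as 24 names, of which 23 were measured, with 0 past an adjusted p of 0.05. Of these, 1 was higher and 0 were lower at an unadjusted p under 0.05 in NLS-actin against parental cells, beside 6.44 percent of all genes. In WT-actin against parental and in NLS-actin against WT-actin cells 4 were higher and 1 was lower, beside 6.69 and 9.47 percent. The medians of this list were 0.129, 0.053 and 0.043 in the 3 comparisons. NEDD4, a ubiquitin ligase, came nearest the threshold, with 1045, 913 and 1023 in parental, 1477, 1456 and 1389.5 in WT-actin and 732, 1002 and 774 in NLS-actin cells. The WT-actin arrays of NEDD4 lay above all others, and its log2 fold change in NLS-actin against WT-actin cells was -0.80 (limma adjusted p = 0.0522).

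**Figure D5:**
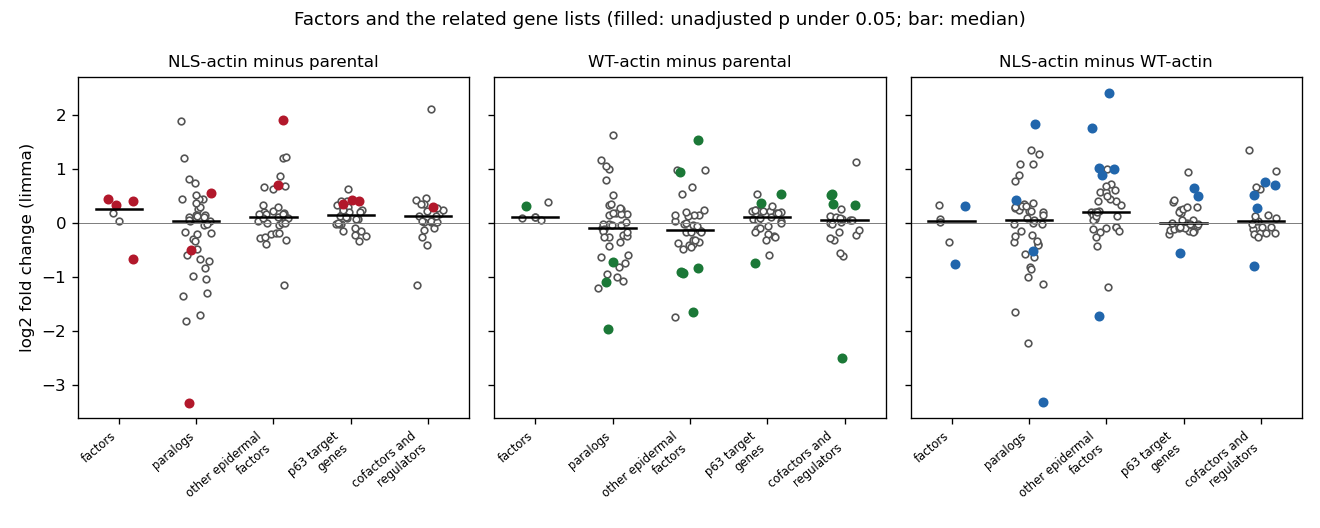
Log2 fold changes (y axis) of the factors and of the 4 related gene lists (x axis), with 1 panel per comparison, filled points for an unadjusted p under 0.05 and bars at the median. The medians of the related lists lie between -0.123 and 0.209.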

How the data were processed

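RNA of 3 HaCaT lines was measured on 9 Affymetrix arrays. The authors deposited MAS5 signals, linear intensities whose 2 percent trimmed mean was 500.04 to 500.06 on each array. The MAS5 version and scaling target are not given in the sources used here, and the number of arrays limits the precision. The log2 of each deposited signal was taken, with no offset and no filter. The 62 control probe sets were left out. Gene symbols came from the platform annotation, updated through RefSeq for 41037 of 41091 probe sets with 1 symbol, and 1801 probe sets with several and 11721 with none were left without a gene. The brightest probe set stood for a gene. Each line had 1 mean in limma 3.58.1 (R 4.3.3), with a variance that followed intensity, tested on simulated data. Figures were drawn with matplotlib 3.10.9 in Python 3.11.15.

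The factors and lists were chosen with earlier results of these data known. Named were every factor, the 3 genes of each list with the smallest unadjusted p in a comparison (a selection of these is described), any at an adjusted p under 0.05, the 3 genes most like each factor, and ACTB. The reported fit is unpaired. A block by replicate number was also fitted for the parental and NLS-actin arrays, since residuals of same-numbered arrays correlated at 0.234, 0.79 and 0.416, although parental 3 with NLS-actin 1 (0.534) and parental 1 with NLS-actin 3 (0.336) correlated as well, so that only the pair of replicates 2 was distinct. For the WT-actin arrays these correlations ran from -0.596 to 0.515. Alternatives were quantile normalization, an offset, a filter on dim probe sets, another variance model, replicate blocks, other choices of probe sets, Tukey's test, the study's thresholds and omission of arrays. The fit of the parental and NLS-actin arrays alone with a block and the fit with the ACTB ratio were chosen after the data were seen. The 3 arrays left out together were those that stood apart from the others, so that this choice rests on the data as well. For statistics in general the study names Tukey's test, and for the arrays it gives a p and a fold threshold without a test.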

Additional observations from a re-analysis of the deposited data

Results flagged for a closer look

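On the log2 scale, every NLS-actin array lay on one side of the parental mean and every WT-actin array on the other in 4 of the 31 factors and listed genes named by the rule, beside 3.52 percent of all genes. The listed genes were picked for a small p, so that these shares are not comparable. The log2 differences between NLS-actin and WT-actin cells were 1.84 for KLF13, 1.03 for FOXE1, -0.52 for SOX4 and 0.65 for DSG3. None of these passed the test of the difference itself (limma adjusted p = 0.0730, 0.133, 0.324 and 0.373). None of the 6 factors showed this pattern.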

How the results depend on the processing

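No factor passed an adjusted p of 0.05 in any comparison under the alternatives, with 1 exception. That exception, chosen after the data were seen, was the replicate block in a fit of the parental and NLS-actin arrays alone. It called 1 factor, SOX9, at a log2 fold change of -0.66, and without the intensity trend it called 0. Of 387 alternative values of log2 fold changes, 365 kept their direction and their side of the threshold and 21 reversed, all of differences that were between 0.03 and 0.20 as reported and had an unadjusted p above 0.05. The block changed no other call. After quantile normalization the WT-actin difference from parental cells was -0.045 for TFAP2A and -0.11 for KLF5. With the mean of all probe sets the NLS-actin difference from parental cells was -0.32 for TFAP2A and -0.11 for GATA3, the WT-actin difference was -0.24 for TFAP2A and -0.23 for KLF5, and NLS-actin against WT-actin was -0.072 for TFAP2A. Without the 3 arrays that stood apart (parental 2, WT-actin 1 and NLS-actin 2), GATA3 was -0.056 in NLS-actin and KLF5 was -0.031 in WT-actin cells. These arrays also had the highest ACTB ratio of their lines. With the ACTB ratio in the fit these values of GATA3 and KLF5 were -0.15 and -0.0002, and TFAP2C was -0.0017 in NLS-actin against WT-actin cells. In that fit the NLS-actin difference from parental cells was 0.40 for SOX15, -0.38 for SOX9, 0.094 for TFAP2A, 0.29 for TFAP2C and 0.25 for KLF5. Leaving out each array in turn gave ranges that crossed 0 for GATA3 in NLS-actin against parental cells (-0.12 to 0.16), for KLF5 (-0.12 to 0.24), SOX9 (-0.27 to 0.35) and TFAP2A (-0.022 to 0.26) in WT-actin against parental cells, and for TFAP2A (-0.069 to 0.15) and TFAP2C (-0.074 to 0.10) in NLS-actin against WT-actin cells. The cause was not tested. SOX15 in NLS-actin against parental cells stayed between 0.39 and 0.49 in these 9 fits, and SOX9 between -0.77 and -0.48.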
